A study of Chlorocebus sabaeus with 45 samples.

Results

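Inflammasomes are protein complexes that assemble inside a cell when a sensor protein meets a microbial product or a sign of damage. The sensor recruits the adaptor PYCARD (also called ASC), which gathers the protease caspase-1, and caspase-1 then cuts the precursors of interleukin-1β and interleukin-18 and the pore-forming protein gasdermin D. In blood, this machinery is best known from neutrophils and monocytes. The 10 genes described here were chosen by name, with earlier results of these data known. The list holds the 7 sensors NLRP1, NLRP3, NLRP6, NLRP12, NLRC4, NAIP and AIM2, the adaptor PYCARD, and the effectors CASP1 and GSDMD. These are 10 of the 18753 genes tested, and each file lists 33994 rows. Of the 10 genes, 9 were found by symbol. PYCARD is listed as LOC103231357 and was found by its NCBI gene number.

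Whole blood was taken from 15 juvenile male vervets (Chlorocebus sabaeus) of the island of St. Kitts, once per animal on day 0, day 3 and day 14 of exposure to a psychosocial stressor, relocation and quarantine. This gave 45 RNA-seq libraries, 15 for each day. Ketamine and xylazine were used for the day 0 sample, taken at capture in the field, and dexmedetomidine and midazolam for the later samples, taken in individual housing. None of the samples comes from an animal left in the field on the later days, so in comparisons with day 0 place, housing, sedation and time cannot be told apart. Days 3 and 14 share housing and sedation.

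Expression is given as FPKM, the fragments of a gene scaled to its length and to the library's total on genes, which allows levels of different genes to be set side by side. As recovered from the values, between 13216280 and 31469337 fragments of each library fell on genes, and the day 0 libraries had a median of 22963984. The 20 most abundant genes of a library held a median of 10% of them at the first time point, 13.9% at the second and 25.5% at the last. For the tests, FPKM were therefore scaled between libraries with the trimmed mean of M values (TMM), and 0.1 was added before taking log2. Without TMM the log2 change from day 0 to day 14 had a median of −0.36 over the tested genes, and with it −0.02, so each log2 fold change below is relative to the typical gene while FPKM values are not. Ranges of FPKM, and counts of FPKM values above or below those of another day, therefore include this shift. A gene was called changed at an adjusted p-value under 0.05 from limma over all tested genes. This main fit did not use the pairing of samples by animal, and counts with the animal as a block are given as an alternative. Markers of neutrophils, monocytes, T cells, B cells, NK cells, erythroid cells and platelets were all present in this whole blood, and 0 of them were at 0 in every library of any day.

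On day 3, 4 of the 10 genes had fallen (NLRP6, NLRP12, AIM2 and CASP1) and 0 had risen. Over all tested genes 12.2% were called in this comparison and 6.19% were called as lower. The count was 1 without animal 2, 7 or 11, 2 without animal 4, 13 or 15, and 2 with no filter on low values. It was 5, all lower, with the animal as a block or with genes of at least 1 FPKM on average. On day 14 vs. day 0, 7 of the 10 genes had fallen (NLRP1, NLRP3, NLRP6, NLRP12, NAIP, AIM2 and CASP1) and 0 had risen, against 36.0% of all tested genes called and 17.3% called as lower. With the animal as a block, the count of that comparison was again 7. Both comparisons share the day 0 samples, and the 10 genes were chosen with earlier results of these data known. All 10 log2 fold changes were below 0 on day 14 vs. day 0, and 8 of 10 were on day 3. Between day 3 and day 14 only NLRP1 fell, 1 of 10 genes, against 13.4% of all tested genes called and 5.01% called as lower. With the animal as a block, limma called 2 of the 10 genes in that last comparison, NLRP1 and NLRP3. On FPKM without TMM, limma called 5 there, all lower, beside a median log2 fold change of −0.35 over all tested genes. It called 0 with no filter on low values or without animal 2, 3, 8, 9, 12 or 14. Without animal 7 or 10 it called 2. The share of all tested genes called was not counted for the alternative fits. The median log2 fold change of the 10 genes was −0.40 on day 3, −0.57 on day 14 and, between those later days, −0.19, beside 0.01, −0.02 and −0.02 over all tested genes. In bulk blood, fewer cells of a type and less RNA per cell cannot be told apart. When limma also fitted the RNA integrity number, a measure of RNA quality, the 4 calls on day 3 became 2, the 7 on day 14 became 4 and the 1 between the later days became 0, each time with no gene called as higher. With the animal as a block in the same fit, the counts were 5, 5 and 1. The log2 fold changes of the lost calls kept their sign in the fit without the block, at −0.86 for NLRP12 and −0.65 for AIM2 on day 3, at −1.0, −0.52 and −0.42 for NLRP12, AIM2 and NLRP3 on day 14, and at −0.74 for NLRP1 between the later days. The RNA integrity number itself was on average higher on each later day than on day 0, so this fit shares part of the day differences, and its part in the changes was not tested.

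**Figure D1:**
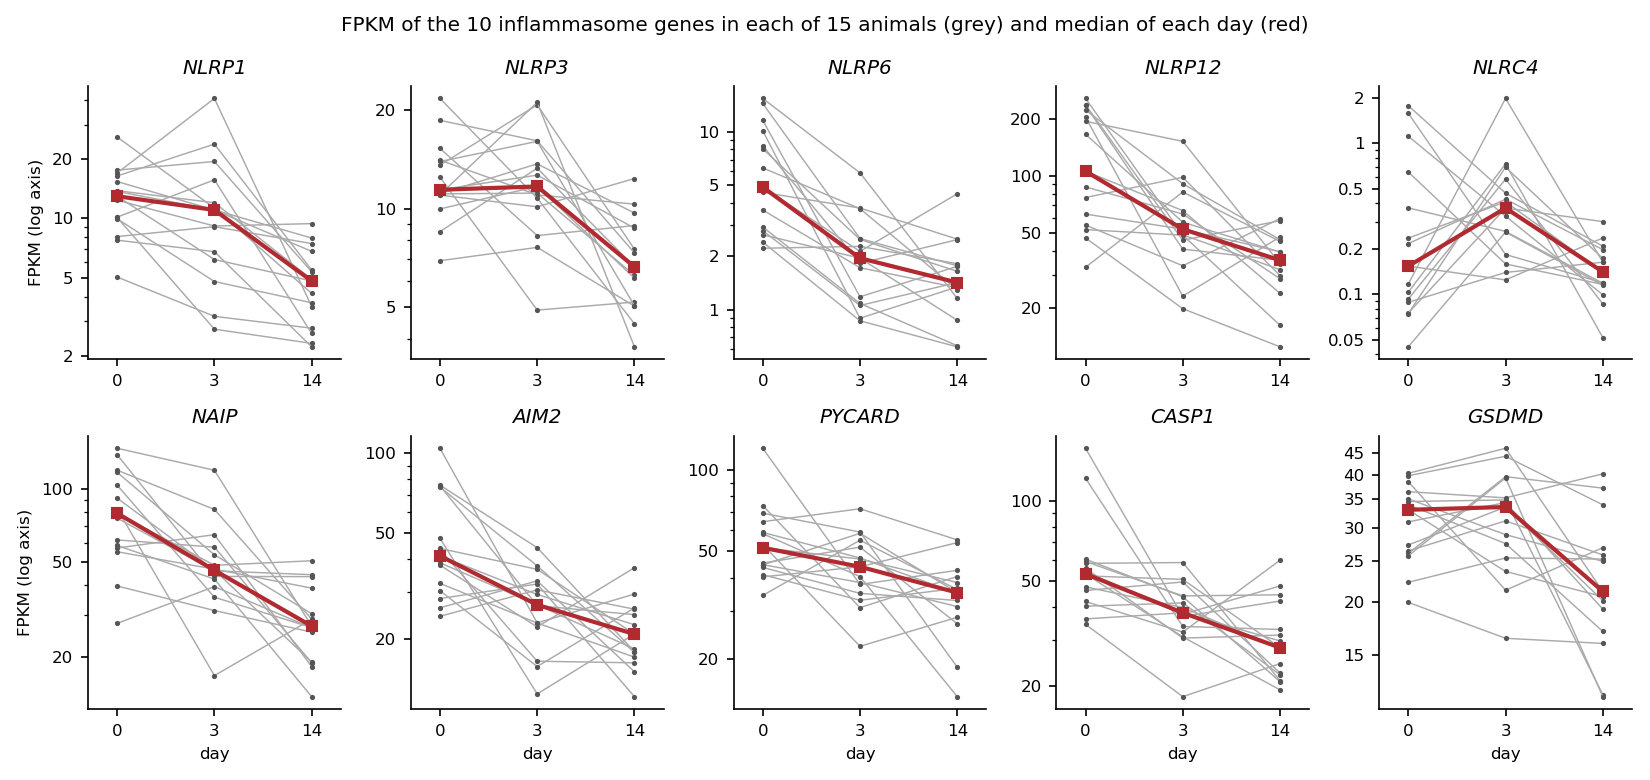
FPKM (vertical log axes, a range of its own in each panel) of the 10 inflammasome genes on days 0, 3 and 14. Each grey line joins the 3 samples of 1 animal (15 animals), and red squares are the medians of each day; the medians of NLRP12 go from 106 to 52.1 to 35.7 FPKM, and those of NLRC4 from 0.154 to 0.372 to 0.141.

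NLRP12, a sensor of the NLR family found mostly in myeloid cells and known for damping NF-κB signalling, had the highest median level of the 10 genes on each of the 3 days. On day 0 it ranged from 32.8 to 256 FPKM with a median of 106, on day 3 from 19.8 to 152 with a median of 52.1, and on day 14 from 12.5 to 59.3 with a median of 35.7. In FPKM, day 0 was the highest day and day 14 the lowest, the ranges overlapped, and all 15 day 14 values lay below the day 0 median. Fewer did so on the scaled log2 scale. The mean FPKM went from 135 ± 82.4 (SD, n = 15) to 61.3 ± 33.7 and then to 36.5 ± 13.5. On the scaled log2 scale NLRP12 fell by 0.99 (SE 0.33, adjusted p = 0.0397) on day 3, lower in 11 of 15 animals, and by 1.27 (SE 0.33, adjusted p = 0.00212) on day 14, a 2.42-fold lower level, in 13 animals. Animal 5 went the other way on both days, with log2 changes of 1.81 and 1.09. The day 3 call passed in 16 of 24 alternative fits (adjusted p 0.0102 to 0.109) and was lost with no filter on low values, with the RNA integrity number, and when animal 2, 4, 7, 11, 13 or 15 was left out (0.0617 to 0.104). The day 14 call passed in 23 of 24 (5.81e-06 to 0.0583) and was lost in the fit with the RNA integrity number alone.

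NLRP6, best known from the intestinal epithelium where it acts in defence and in shaping the microbiota, had the largest log2 fold change of the 10 genes on both later days. It was expressed at a lower level than NLRP12, between 2.22 and 15.5 FPKM on day 0 (median 4.90), between 0.866 and 5.89 on day 3 (median 1.95) and between 0.618 and 4.49 on day 14 (median 1.42). In FPKM, both later days were low against day 0, and 12 of 15 day 14 values lay below the lowest day 0 value, although the ranges overlapped. Fewer day 14 values did so on the scaled log2 scale. The levels of NLRP6 rest on 51 to 1536 fragments per library. NLRP6 fell by 1.42 on the log2 scale on day 3 (SE 0.31, adjusted p = 0.00238), 2.67-fold, and was lower in 14 of 15 animals. On day 14 it was 1.41 below day 0 (SE 0.31, adjusted p = 3.56e-04) in 13 of 15 animals. From day 3 to day 14 the log2 difference was 0.01 (95% confidence interval −0.61 to 0.63, adjusted p = 0.986). Its fall against day 0 passed the test in 24 of 24 alternative fits on both days.

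NAIP and NLRC4 work as a pair, in which NAIP binds bacterial flagellin or secretion system proteins and NLRC4 then builds the complex. Their levels in blood were far apart. NAIP ranged from 27.7 to 148 FPKM on day 0 (median 79.4), from 16.8 to 120 on day 3 (median 46.0) and from 13.7 to 50.4 on day 14 (median 26.9). In FPKM the medians were lower on each later day, the ranges overlapped, and 13 of 15 day 0 values lay above the highest day 14 value. Fewer day 0 values did so on the scaled log2 scale. On day 14, NAIP fell by 1.04 on the log2 scale (SE 0.23, adjusted p = 4.03e-04), 2.05-fold, and was lower in 14 of 15 animals. That call passed in 24 of 24 alternative fits. On day 3 its log2 fold change of −0.65 missed the threshold (adjusted p = 0.0517) and passed it with the animal as a block (0.0104), and over 24 alternatives it passed in 9, with adjusted p from 0.0104 to 0.141. Primates can carry near-identical copies of NAIP, so its level is uncertain where fragments were shared between copies, which was not tested.

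NLRC4 was near the lower limit of what these libraries measure. Its FPKM lay between 0.0449 and 1.77 on day 0 (median 0.154), between 0.124 and 1.98 on day 3 (median 0.372) and between 0.0517 and 0.303 on day 14 (median 0.141), from 5 to 206 fragments per library with a median of 20. Day 3 had the highest median and all 3 ranges overlapped. The log2 fold changes were 0.36 on day 3 (95% confidence interval −0.33 to 1.05, adjusted p = 0.558) and −0.36 on day 14 (−1.04 to 0.33, adjusted p = 0.440). Neither passed. The animals disagreed most for this gene, with day 3 changes from −2.98 in animal 15 to 3.25 in animal 3. On day 14 vs. day 3 it was lower in 11 of 15 animals (log2 fold change −0.71, adjusted p = 0.147).

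AIM2 binds double-stranded DNA in the cytosol. It ranged from 24.3 to 105 FPKM on day 0 (median 41.1), from 12.4 to 44.1 on day 3 (median 26.8) and from 12.1 to 37.1 on day 14 (median 20.8). In FPKM, day 0 was high, and all 15 day 14 values and 14 of 15 day 3 values lay below its median, with overlapping ranges. On the scaled log2 scale fewer values of either day did so. AIM2 fell by 0.72 on the log2 scale on day 3 (SE 0.22, adjusted p = 0.0235) and by 0.66 on day 14 (SE 0.22, adjusted p = 0.0142), and was lower in 12 of 15 animals both times. From day 3 to day 14 the difference was 0.06 (95% confidence interval −0.38 to 0.49). The day 3 call passed in 20 of 24 alternative fits (adjusted p 0.00644 to 0.0649) and was lost with the RNA integrity number and without animal 2, 7 or 11 (0.0603 to 0.0649). The day 14 call passed in 22 of 24 (1.02e-05 to 0.148) and was lost in both fits with the RNA integrity number.

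NLRP1, which detects microbial proteases and is held in check by the peptidase DPP9, ranged from 5.03 to 26.0 FPKM on day 0 (median 12.98), from 2.73 to 40.9 on day 3 (median 11.045) and from 2.22 to 9.41 on day 14 (median 4.80). In FPKM, days 0 and 3 overlapped widely, while 12 of 15 day 0 values lay above the highest day 14 value. Fewer day 0 values did so on the scaled log2 scale. On day 3 its log2 fold change was −0.27 (95% confidence interval −0.76 to 0.21, adjusted p = 0.519). On day 14 it fell by 1.02 against day 0 (SE 0.24, adjusted p = 9.63e-04) in 13 of 15 animals, and by 0.74 against day 3 (SE 0.24, adjusted p = 0.0358) in 14 of 15 animals. The first of these calls passed in 24 of 24 alternative fits. The second passed in 16 of 24 (adjusted p 0.00324 to 0.0992) and was lost with no filter on low values, with the RNA integrity number and without animal 2, 3, 8, 9, 12 or 14 (0.0561 to 0.0992).

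NLRP3 responds to potassium loss and many other signs of cell damage. It was at 6.94 to 21.6 FPKM on day 0 (median 11.4), 4.90 to 21.1 on day 3 (median 11.7) and 3.79 to 12.3 on day 14 (median 6.64). In FPKM, day 14 was the low day, with 14 of 15 values below the day 0 median and with overlapping ranges. Fewer lay below that median on the scaled log2 scale. The log2 difference between day 3 and day 0 was −0.01 (95% confidence interval −0.31 to 0.30). On day 14 NLRP3 fell by 0.42 against day 0 (SE 0.15, adjusted p = 0.0287), 1.34-fold, and was lower in 9 of 15 animals. Against day 3 the difference was −0.41, lower in 13 animals, with adjusted p = 0.0621 and 0.0444 with the animal as a block. The day 14 call against day 0 passed in 16 of 24 alternative fits (1.33e-04 to 0.226) and was lost in both fits with the RNA integrity number and without animal 2, 7, 11, 13, 14 or 15 (0.0527 to 0.0823).

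PYCARD, the adaptor that links most of these sensors to caspase-1, had FPKM from 34.3 to 121 on day 0 (median 51.6), from 22.2 to 72.0 on day 3 (median 43.9) and from 14.4 to 55.2 on day 14 (median 35.2). The medians were lower on the later days and the ranges overlapped widely. After scaling, its log2 fold change was −0.27 on day 3 (95% confidence interval −0.62 to 0.07, adjusted p = 0.326) and −0.26 on day 14 (−0.60 to 0.09, adjusted p = 0.243). It was lower in 7 and in 9 of 15 animals. On FPKM without TMM, the day 14 value was −0.68 with adjusted p = 0.00106, the only one of 24 alternatives that passed (0.00106 to 0.463).

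CASP1, the protease at the end of the complex, ranged from 34.3 to 158 FPKM on day 0 (median 53.2), from 18.3 to 58.6 on day 3 (median 37.9) and from 19.4 to 59.9 on day 14 (median 28.0). Day 0 was the highest day, the ranges overlapped, and 2 animals stood above the rest there, animal 11 at 158 and animal 10 at 122 FPKM. CASP1 fell by 0.52 on the log2 scale on day 3 (SE 0.18, adjusted p = 0.0464) in 10 of 15 animals and by 0.47 on day 14 (SE 0.18, adjusted p = 0.0324) in 11. The day 3 call passed in 13 of 24 alternative fits (adjusted p 0.0234 to 0.122) and was lost with no filter on low values and when animal 1, 2, 3, 4, 7, 8, 10, 11, 13 or 15 was left out (log2 fold change −0.53 to −0.40, adjusted p 0.0581 to 0.122). The day 14 call passed in 18 of 24 (9.04e-05 to 0.0874) and was lost with no filter and without animal 3, 4, 10, 11 or 15 (−0.46 to −0.36, 0.0560 to 0.0874). CARD16 shares sequence with CASP1, so fragments of either may have been counted for the other.

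GSDMD, which caspase-1 cuts to free its pore-forming part, had the log2 fold change nearest to 0 of the 10 genes on day 14 vs. day 0. It ranged from 19.99 to 40.3 FPKM on day 0 (median 33.0), from 16.5 to 46.1 on day 3 (median 33.5) and from 11.98 to 40.1 on day 14 (median 21.2). The first 2 days were alike in range, and day 14 was lower in FPKM but still overlapped both. The scaled log2 fold change was 0.06 on day 3 (95% confidence interval −0.14 to 0.25) and −0.05 on day 14 (−0.25 to 0.15, adjusted p = 0.746). Without TMM the day 14 value was −0.47 with adjusted p = 0.0125, the only one of 24 alternatives to pass (0.0125 to 0.975).

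**Figure D2:**
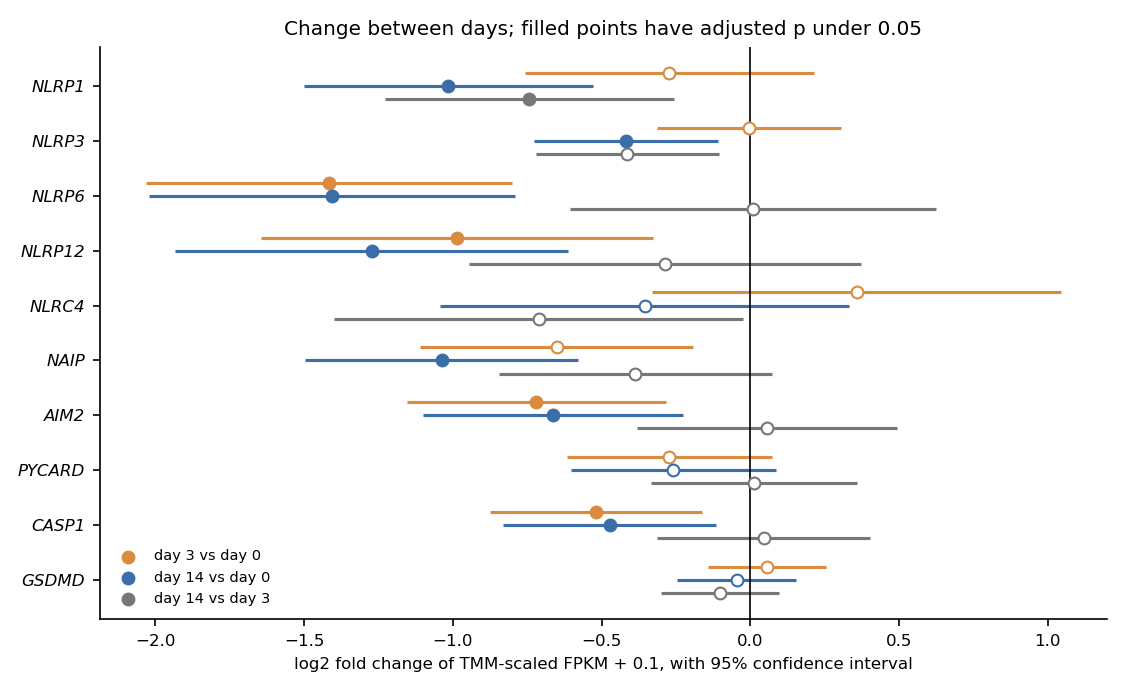
Log2 fold change of TMM-scaled FPKM + 0.1 (horizontal axis) of the 10 genes in 3 comparisons, with 95% confidence intervals; filled points have a limma adjusted p under 0.05. NLRP6, NLRP12, AIM2 and CASP1 are filled on day 3 and day 14 against day 0, NLRP1 on day 14 against both earlier days, and NLRC4, PYCARD and GSDMD are open in all 3.

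Within animals, the day of the lowest level was counted for each gene, with no test between genes. NLRP6 was lowest on day 3 in 8 animals and on day 14 in 6, and CASP1 in 7 and 6. NLRP1 was lowest on day 14 in 13 animals, NAIP in 12 and NLRP12 in 10. A fall at each step, from day 0 to 3 and from 3 to 14, was seen in 9 animals for NLRP1 and for NAIP and in 2 for GSDMD.

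The order of the median levels differed numerically between days, and this difference was not tested. On day 0 the medians ran NLRP12, NAIP, CASP1, PYCARD, AIM2, GSDMD, NLRP1, NLRP3, NLRP6 and NLRC4. Neighbours in this order were compared within animals on log2(FPKM + 0.1) by a 2-sided exact sign-flip permutation test, with p-values adjusted over 27 neighbour pairs of the 3 days. On day 0, 3 steps did not pass: NAIP to CASP1 (adjusted p = 0.0801), CASP1 to PYCARD (0.723) and NLRP1 to NLRP3 (0.9785). NLRP12 lay above NAIP by 0.53 on day 0, in 13 of 15 animals (adjusted p = 0.00644), but by 0.19 on day 3 (adjusted p = 0.137). On day 14 NLRP12, PYCARD, CASP1, NAIP, GSDMD and AIM2, in that order, did not differ between neighbours beyond the spread, with adjusted p from 0.0827 to 0.950. The step from that group to NLRP3 passed, at 1.59 above it for AIM2 in 15 of 15 animals (adjusted p = 2.75e-04, the smallest value reached). NLRP6 and NLRC4 closed the order on all 3 days, each apart from its upper neighbour. In all, 14 of 27 neighbour pairs passed.

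The spread between animals was numerically widest on day 0 for 9 of the 10 genes. The SD of the log2 level of NLRP12 was 1.21 at first, 0.72 on day 3 and 0.75 on day 14, and that of NLRC4 was 1.40, 0.83 and 0.37. Of 30 tests of the change in spread (sign-flip permutation of the absolute deviations), 0 passed after adjustment and the lowest adjusted p was 0.142. Unadjusted, 8 had p under 0.05 and the lowest p was 0.00952, for NLRC4 on day 14 vs. day 0.

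After removal of the day means, 10 of the 21 pairs of sensors had r above 0.5 across the 45 samples. The highest correlation between 2 of the 10 genes was that of NLRP12 with NAIP (r = 0.881), followed by NAIP with AIM2 (0.833), NLRP6 with NLRP12 (0.832) and NLRP6 with NAIP (0.813). NLRC4, at a median of 20 fragments per library, had r from 0.003 to 0.458 with the other sensors. The part of its low depth in these values was not tested. The adaptor PYCARD with CASP1 reached 0.662. NLRP1 stood apart from the adaptor and from caspase-1, with r = 0.063 and 0.059. Of 45 pairs, 19 had r above 0.5. The share of such pairs among all tested genes was not computed. These are descriptions over libraries that share animals, depth and scaling.

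The genes most like each member by the same measure, among 10939 with a mean of at least 5 CPM (fragments of a gene relative to the library total), were also noted. NLRP12 was most like STEAP4 (r = 0.970), CXCR2 (0.966) and TNFRSF10C (0.962). CXCR2, a chemokine receptor of neutrophils, and TNFRSF10C are both on the neutrophil marker list. AIM2 was most like CASP4 (0.956), the caspase that senses bacterial lipopolysaccharide, and NAIP most like IL1R1 (0.940), the receptor for interleukin-1. NLRP6 was close to IFNAR2 (0.879) and TNFRSF1A (0.868), receptors for type I interferon and tumour necrosis factor. PYCARD lay near CAPG (0.894) and TYROBP (0.892), a signalling adaptor of myeloid and NK cells. NLRP1 was nearest to GPR107 (0.843), NLRP3 to FAM129B (0.862), CASP1 to BAZ1A (0.854), and NLRC4 was near BST1 (0.816) and BPI (0.814), a bactericidal protein of neutrophil granules. GSDMD had the weakest likeness, with PARP10 at 0.722.

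Neutrophil markers moved with the same days. Of 18 listed markers, 17 are in the files, and their summed level went from a median of 4884 FPKM on day 0 (1964 to 35817) to 2962 on day 3 (785 to 8022) and 1607 on day 14 (574 to 4302). Their mean log2 level was lower by 1.11 ± 1.38 (SD over 15 animals) on day 3, in 11 of 15 animals (sign-flip permutation, adjusted p = 0.0160), and by 1.40 ± 1.11 on day 14, in 13 animals (adjusted p = 0.00112). From day 3 to day 14 the difference was −0.29 ± 0.48 (adjusted p = 0.0520). limma called 9 of the 17 as lower on day 3, beside 6.19% of all tested genes, 16 on day 14 vs. day 0, beside 17.3%, and 0 between the later days, beside 5.01% (2 at an unadjusted p under 0.05, and 1 after adjustment with the animal as a block). Monocyte markers changed by 0.15 ± 0.50 on day 3 (adjusted p = 0.328) and −0.13 ± 0.53 on day 14 (adjusted p = 0.403), and limma called 3 of the 10 tested ones as higher and 0 as lower on day 3, beside 12.2% of all tested genes called. On day 14 vs. day 0 it called 1 of them as higher and 2 as lower, beside 36.0%, and between the later days 0 as higher and 1 as lower, beside 13.4%. Their summed levels were 1678, 1672 and 1333 FPKM at the median of days 0, 3 and 14. T cell markers changed by −0.09 (adjusted p = 0.401) and −0.06 (0.482), and B cell markers by 0.20 (0.369) and −0.41 (0.0927). Between the later days, monocyte markers fell by 0.28 in 12 of 15 animals (adjusted p = 0.00897) and B cell markers fell by 0.61 in 13 (adjusted p = 0.00103). NK cell markers rose by 0.60 and 1.05 against day 0, and erythroid markers by 1.51 and 2.70. Both also rose between the later days, by 0.46 (adjusted p = 0.00103) and 1.19 (adjusted p = 0.00684). Platelet markers rose by 1.65 on day 3, fell by 0.88 from there to day 14 (adjusted p = 0.00705), and on day 14 were 0.77 above day 0 (adjusted p = 0.0520). The 21 tests of the marker lists were adjusted together. The part of these cell types in the changes of the 10 genes was not tested.

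The change of most of the genes within an animal went with the change of the neutrophil markers in the same animal. On day 3, AIM2 had r = 0.952 (Spearman rho 0.943) and NLRP12 r = 0.947 (rho 0.932) over the 15 animals, both with permutation p = 1e-05, the smallest that 100000 resamples can give, and adjusted p = 5.71e-05. NAIP (r = 0.906, rho 0.911) and NLRP6 (r = 0.898, rho 0.836) were close behind. Without the 2 animals farthest from the median marker change, r was 0.934 for AIM2, 0.930 for NLRP12, 0.851 for NAIP and 0.834 for NLRP6. Over all 15 animals, r on day 14 was 0.888 for AIM2, 0.857 for NLRP12, 0.851 for NLRP6 and 0.727 for NAIP. Without the 2 farthest animals these became 0.893, 0.890, 0.791 and 0.712.

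PYCARD, whose level was not called as changed, followed the markers too, with r = 0.823 (rho 0.811, adjusted permutation p = 4.29e-04) on day 3 and 0.824 (rho 0.800, adjusted p = 6.25e-04) on day 14. For CASP1 the values were 0.659 (adjusted permutation p = 0.0108) and 0.536 (0.0486). NLRP3 had r = 0.742 on day 3 and 0.590 on day 14, and NLRC4 0.729 and 0.595. NLRP1 did not pass on either day, with r = 0.517 (adjusted permutation p = 0.0580) and 0.457 (0.0927). GSDMD had r = 0.516 on day 3, which fell to 0.184 without the 2 farthest animals and did not pass (adjusted permutation p = 0.0505). On day 14 its r of 0.547 passed (adjusted permutation p = 0.0467) but its rho did not (0.0627), and r was 0.400 without the 2 farthest animals. Left out in the same way on day 14, the 2 farthest animals took r to 0.399 for NLRC4, 0.465 for CASP1 and 0.496 for NLRP3, so these relations rest in part on them. In all, 17 of 20 relations passed by r and 15 by rho, adjusted over 40 tests. NLRP3 and GSDMD on day 14 passed by r alone. Both values of an animal come from the same libraries and share their scaling. How many of all tested genes would pass in the same way was not computed.

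**Figure D3:**
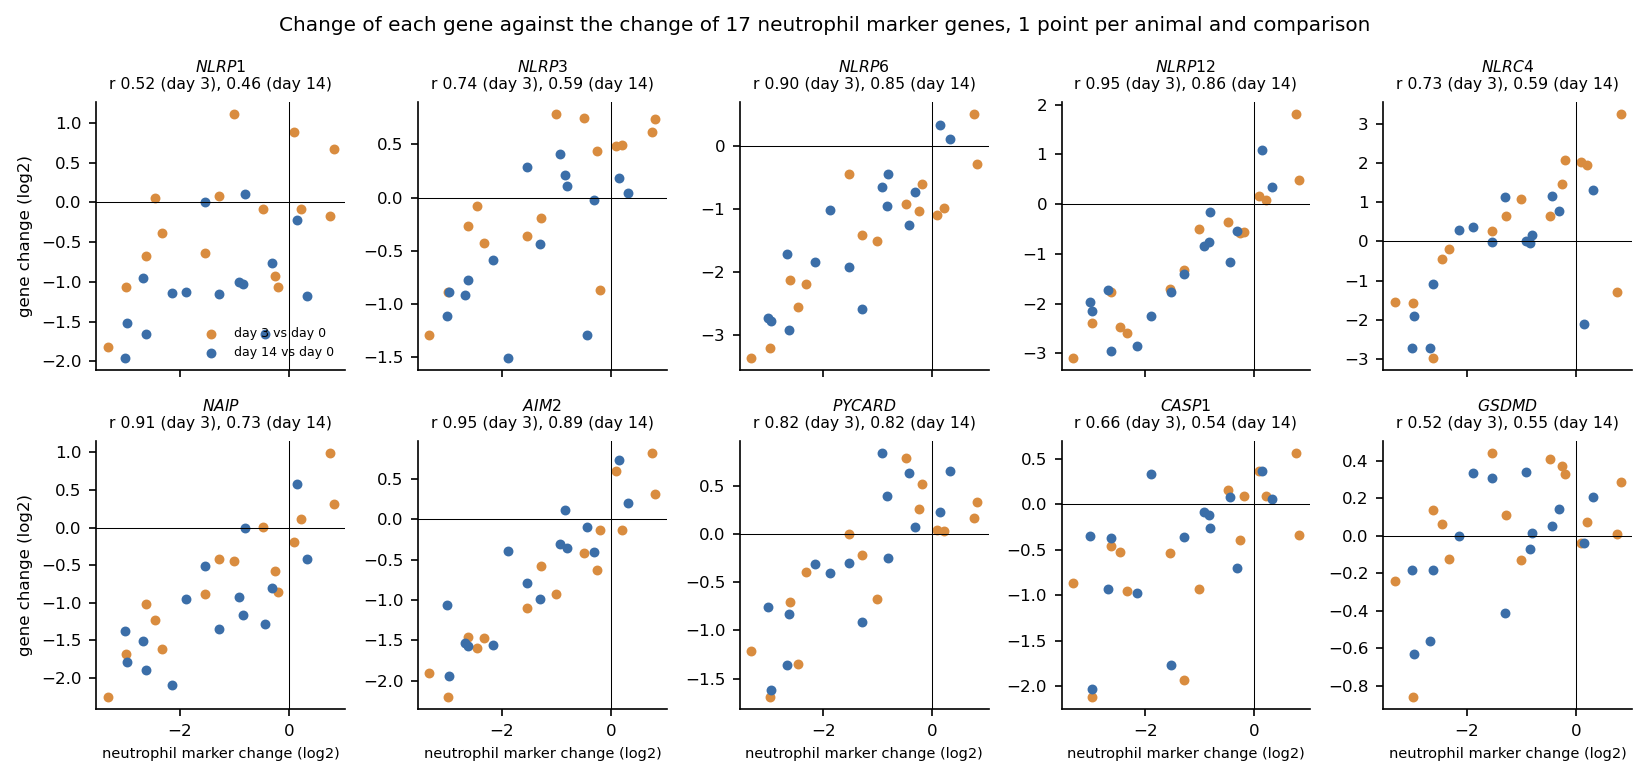
Log2 change of each gene from day 0 (vertical axes) against the mean log2 change of 17 neutrophil markers from day 0 (horizontal axis), with 1 point per animal for day 3 (orange) and day 14 (blue) and Pearson's r of each above the panel. Points of NLRP12 and AIM2 lie close to a line (r of 0.947 and 0.952 on day 3), and those of NLRP1 scatter widely (0.517).

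Other genes of the inflammasome pathway came from a list of 35, of which 29 could be tested. This list too was chosen with earlier results of these data known. On day 3, 7 of the 29 were called (1 higher and 6 lower), or 24.1%, and 3 were called with the RNA integrity number or without animal 4, and 4 with no filter on low values or without animal 2 or 11. With the animal as a block 7 were called, and 9 (3 higher and 6 lower) when the RNA integrity number was fitted as well. On day 14, 12 were called against day 0 (2 higher and 10 lower), or 41.4%, and 7 against day 3 (3 higher and 4 lower), or 24.1%. The last of these counts was 4 with the RNA integrity number, and 2 to 4 without animal 3, 8, 9, 12 or 14. These stand beside the 12.2%, 36.0% and 13.4% of all tested genes. With the animal as a block, limma called 16 of the 29 on day 14 vs. day 0 (6 higher and 10 lower), with NEK7 (adjusted p = 0.0132), CARD16 (0.0380), GSDMA (0.0455) and ZBP1 (9.89e-05) added as higher, and 9 between the later days (4 higher and 5 lower). On FPKM without TMM the higher calls became 0 on day 3, 1 on day 14 vs. day 0 (beside 19 lower) and 0 between the later days (beside 11 lower). The median log2 fold changes over all tested genes were then −0.03, −0.36 and −0.35. In the main fit the median log2 fold change of the 29 was −0.12, −0.21 and −0.09.

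Among the proteins that caspase-1 cuts, IL1B, the precursor of interleukin-1β, ranged from 8.31 to 73.3 FPKM on day 0 (median 22.2), from 5.86 to 23.7 on day 3 (median 11.5) and from 4.83 to 21.0 on day 14 (median 8.51). Day 0 was high, with overlapping ranges. IL1B fell by 1.08 on the log2 scale on day 3 (SE 0.29, adjusted p = 0.0115) in 13 of 15 animals and by 1.06 on day 14 (SE 0.29, adjusted p = 0.00339) in 12. Of 24 alternative fits, its day 14 call was lost in 1, with the RNA integrity number (0.0555). IL18 stayed low, with medians of 0.648, 0.647 and 0.604 FPKM, and its log2 fold changes were −0.01 on day 3 (adjusted p = 0.988) and 0.28 on day 14 (adjusted p = 0.143). Among inhibitors, IL1RN, the interleukin-1 receptor antagonist, fell by 1.09 on day 3 (adjusted p = 0.0297) and by 1.36 on day 14 (adjusted p = 0.00159), from a median of 10.4 FPKM to 4.59 and 2.71. Its day 3 call passed in 16 of 24 alternative fits (adjusted p 0.0061 to 0.0997), and was lost with no filter on low values, with the RNA integrity number and without animal 2, 4, 7, 8, 11 or 13. IL18BP, which binds interleukin-18, fell between day 3 and day 14 (log2 fold change −0.52, adjusted p = 0.0420), a call that passed in 14 of 24 alternative fits (0.00397 to 0.139) and was lost with no filter, in both fits with the RNA integrity number and without animal 2, 3, 8, 9, 10, 12 or 14.

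Both other caspases of the list that were tested fell against day 0. CASP4 had medians of 51.1, 38.7 and 26.8 FPKM and fell by 0.77 on day 3 (adjusted p = 0.0142) and by 0.75 on day 14 (adjusted p = 0.00540), each time in 12 of 15 animals. CASP8, a caspase of cell death that can also act in inflammasomes, had medians of 128, 99.2 and 70.6 FPKM. It fell by 0.44 on day 3 (SE 0.09, adjusted p = 0.00149) and by 0.33 on day 14 (SE 0.09, adjusted p = 0.00287), lower in 13 of 15 animals both times. Both genes were level between day 3 and day 14, with log2 differences of 0.03 and 0.10 (adjusted p = 0.946 and 0.446). Of the genes for pores and membrane rupture, GSDMB fell on day 14 vs. day 0 (log2 fold change −0.78, adjusted p = 0.00856), at medians of 0.399 and 0.124 FPKM and of 17 and 6 fragments. NINJ1, which drives rupture of dying cells, had log2 fold changes of −0.14 and −0.28 on day 3 and day 14 (adjusted p = 0.647 and 0.175). DFNA5, the older symbol of GSDME, had −0.04 and −0.17 (0.924 and 0.521). GSDMA had 0.22 and 0.34 (0.369 and 0.0718, the latter 0.0455 with the animal as a block).

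Among further sensors, MEFV, which encodes pyrin, fell by 0.92 on day 3 (adjusted p = 0.0333) and by 1.20 on day 14 (adjusted p = 0.00138), and its partner PSTPIP1 fell by 0.41 on day 14 vs. day 0 (adjusted p = 0.00688). The day 3 call of MEFV passed in 16 of 24 alternative fits (0.0104 to 0.101), and was lost with no filter, with the RNA integrity number and without animal 2, 4, 7, 11, 13 or 15. TXNIP, a partner of thioredoxin that can bind NLRP3, fell by 0.45 and 0.52 (adjusted p = 0.0256 and 0.00270) in 13 and 14 of 15 animals, and both calls were lost with the RNA integrity number (0.0774 and 0.0711), the first also without animal 4 (0.0587). CARD8, a relative of NLRP1, fell by 0.22 on day 14 vs. day 0 (adjusted p = 0.0239) in 14 animals, a call lost in both fits with the RNA integrity number and without animal 1 or 15. Genes that rose were fewer. PANX1, a membrane channel, rose by 0.41 on day 3 (adjusted p = 0.0335) and was 0.44 lower on day 14 than on day 3 (adjusted p = 0.0250, and 0.0649 without animal 12). Its day 3 call passed in 14 of 24 alternative fits (0.0123 to 0.259), and was lost without TMM, with no filter, with the RNA integrity number and without animal 2, 4, 5, 6, 7, 11 or 12. SUGT1, a co-chaperone of NLR proteins, rose by 0.53 on day 14 vs. day 0 (adjusted p = 0.00251) in 14 of 15 animals, a call lost without TMM (0.448). The transcription factor gene IRF2 rose by 0.74 (adjusted p = 0.00272) in 12 animals, whereas IRF1 fell by 0.49 (adjusted p = 0.0155, and 0.0802 with the RNA integrity number). NEK7, the kinase that binds NLRP3, rose by 0.56 from day 3 to day 14 (adjusted p = 0.0201), a call lost without TMM (0.211) and without animal 8 (0.0804). P2RX7, the ATP-gated channel upstream of NLRP3, fell by 0.49 between these days (adjusted p = 0.0181, and 0.061 without animal 8).

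**Figure D4:**
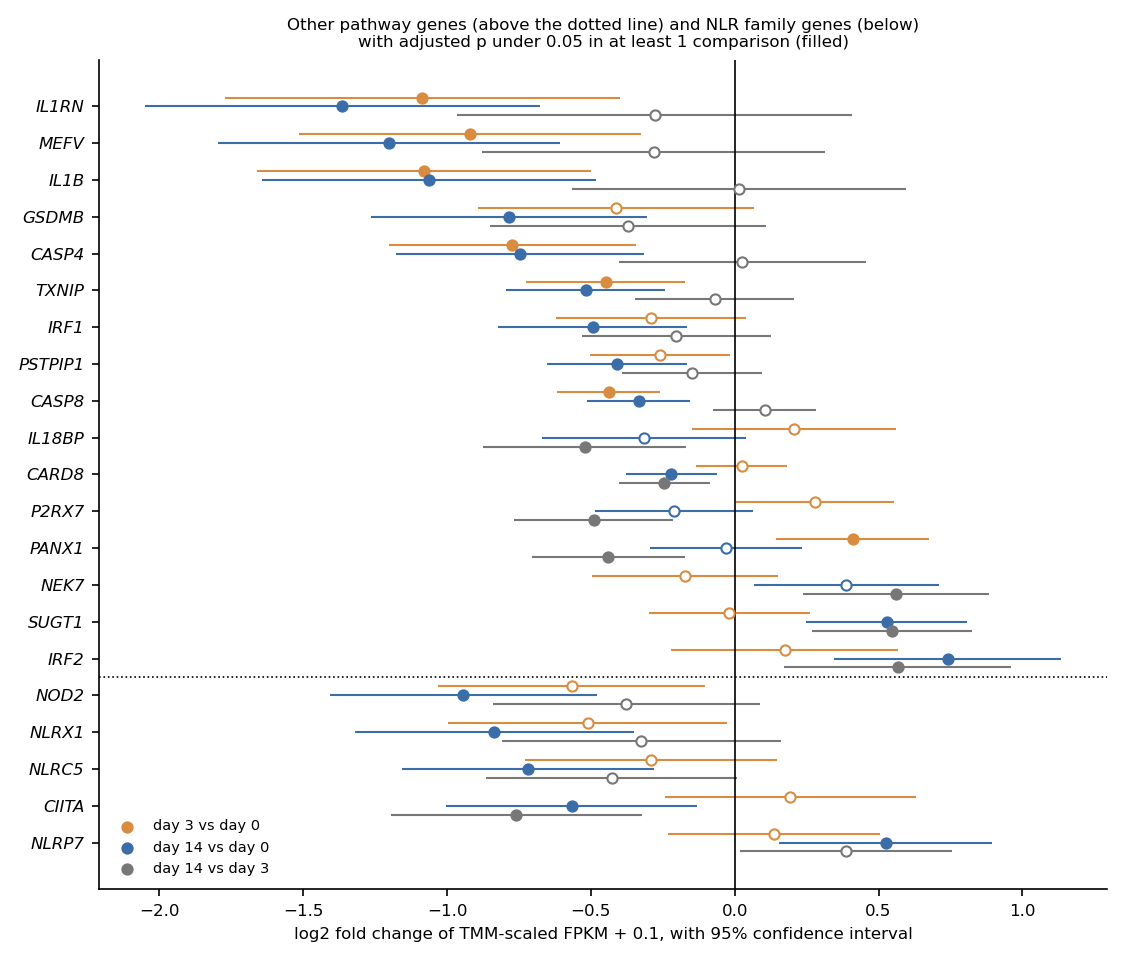
Log2 fold change of TMM-scaled FPKM + 0.1 (horizontal axis) with 95% confidence intervals for the 16 other pathway genes and the 5 other NLR family genes that were called in at least 1 of the 3 comparisons; filled points have a limma adjusted p under 0.05. IL1RN (−1.36), MEFV (−1.20) and IL1B (−1.06) lie farthest to the left on day 14 vs. day 0, and IRF2 (0.74) farthest to the right.

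The NLR family has further members beside those named above. Of 16 such genes listed, 16 are in the files and 9 passed the filter on low values. On day 3, limma called 0 of the 9, beside 12.2% of all tested genes, with 2 at an unadjusted p under 0.05, and 1, NOD2, passed with the animal as a block (log2 fold change −0.57, adjusted p = 0.0996 without and 0.0446 with it). On day 14 vs. day 0 it called 5 of 9, with 4 lower and 1 higher, beside the 36.0% of all tested genes. NOD2, which binds fragments of bacterial cell walls, went from a median of 24.6 FPKM to 9.85 and fell by 0.94 (adjusted p = 0.00128) in 14 of 15 animals. NLRX1 fell by 0.84 (adjusted p = 0.00565), NLRC5, an activator of MHC class I genes, by 0.72 (adjusted p = 0.00817), and CIITA, the corresponding activator of MHC class II genes, by 0.57 (adjusted p = 0.0365). These last 3 calls were lost in both fits with the RNA integrity number, and that of CIITA also with no filter and without animal 1, 2, 9, 12, 13 or 14. CIITA also fell between day 3 and day 14 (log2 fold change −0.76, adjusted p = 0.0202), the 1 gene of the 9 called there (11.1%, beside 13.4% of all tested genes), and that call was lost without animal 2 or 8 (0.0556 and 0.0684). NLRP7 was called higher on day 14 vs. day 0 at a median of 0.0908 FPKM, which rests on 9 fragments. That call passed in 18 of 23 alternative fits (adjusted p 0.00575 to 0.15) and was lost without TMM, in both fits with the RNA integrity number and without animal 3 or 11. NLRP2 was numerically higher on day 14 than on day 0 in 11 animals (log2 fold change 0.43, adjusted p = 0.312, and 0.0209 with the animal as a block).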

How the data were processed

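RNA of whole blood was sequenced as 45 libraries after removal of ribosomal and globin RNA, with a stranded kit. Per the study's methods and the submitters' notes, paired-end reads were demultiplexed with bcl2fastq 2.17, aligned with STAR to the Chlorocebus_sabeus 1.1 genome and counted per gene with HTSeq, whose strand setting is not given in the sources used here. The authors deposited FPKM, 1 value per gene and sample. All FPKM above 0 came out as whole numbers of fragments once divided by the step of their gene and sample (tolerance 0.02, 100% of values), which gave the depth behind each value. For time point 4 the labels say day 14 and the design text day 15, and day 14 is used here.

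Genes above 0.5 CPM in at least 3 samples were tested. FPKM were scaled by TMM (trims of 30% and 5%), 0.1 was added, and log2 values were fitted with limma 3.58.1 in R 4.3.3 with 1 mean per day over all 45 samples, and p-values were adjusted by Benjamini-Hochberg. Replicates are different animals, and the labels tie the 3 samples of an animal together. The main fit did not use this pairing. With the day means removed, the mean r across genes was 0.328 between samples of 1 animal and −0.0382 between animals. Alternatives added the animal as a block, the study's RNA integrity numbers, or other scalings, filters and added constants, or left out 1 animal. Marker levels, level order and spread were tested by 2-sided sign-flip permutation over all 32768 sign patterns of the 15 animals (exact), and correlations by 100000 permutations.

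The members and gene lists were chosen with earlier results of these data known. All 10 members are named, and of each other list the called genes with the lowest adjusted p (at most 10) and every gene for caspases, cleaved cytokines and pores. The most alike genes are those with the highest r, apart from loci without a gene name. PYCARD and any older symbols were matched through a RefSeq gene table of another assembly (mChlSab1.0.hap1), used for names only, so no coordinates are given. Precision is limited by fragments per gene, and p-values measure the spread between these animals.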

Additional observations from a re-analysis of the deposited data

How the results depend on the processing

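Apart from leaving out animals, 267 alternative values of the 10 genes were computed. Of these, 232 kept their direction and their side of the threshold, 12 lost the call, 13 gained it and 10 changed sign. With 1 animal left out in turn, 388 of 450 did so, 36 lost the call, 6 gained it and 20 changed sign. The calls of NLRP6 on both days, and of NLRP1 and NAIP on day 14 vs. day 0, held in all 24 alternatives. Where a setting below moved a count, the cause was not tested unless it is named. NLRC4, at 5 to 206 fragments per library, is limited by depth and gave no value when genes needed a mean of at least 1 FPKM.

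With no filter on low values, which adds genes to the adjustment, 2 of the 10 genes were called on day 3 and 0 between the later days, and 4 pathway genes on day 3. When limma also fitted the RNA integrity number, the 10 genes gave 2 calls on day 3, 4 on day 14 and 0 between the later days, and the pathway genes gave 3 on day 3 and 4 between the later days. On FPKM with no further scaling, 5 of the 10 were called between the later days, as were 11 pathway genes, and 20 pathway genes were called on day 14 against day 0. The median log2 fold change over all tested genes was then −0.346 and −0.364 in these 2 comparisons. The neutrophil markers then passed between the later days (−0.649, adjusted p = 0.00862). Genes of at least 1 FPKM on average, or the animal as a replicate block, gave 2 calls of the 10 between the later days. The block also moved the calls given beside NAIP, NLRP3, the pathway genes, NOD2 and NLRP2, and it changed no other call of the 10 genes. Without each animal in turn, the 10 genes gave 1 to 5 calls on day 3 and 0 to 2 between the later days, and the pathway genes 3 to 8 and 2 to 8.

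Every change of sign was of a difference that had not passed. Between the later days with no further scaling these were NLRP6 (−0.350), AIM2 (−0.325), PYCARD (−0.370) and CASP1 (−0.338), beside a median of −0.346 over all tested genes. With the RNA integrity number they were PYCARD (−0.0893) and CASP1 (−0.0224) between the later days and GSDMD (−0.00519) on day 3. With the replicate block and the RNA integrity number together they were PYCARD (−0.0712) and CASP1 (−0.0220) between the later days and NLRP3 (0.0316) on day 3. With single animals left out, the ranges were −0.0617 to 0.0866 for NLRP3 on day 3 and, between the later days, −0.0704 to 0.0874 for NLRP6, −0.0236 to 0.0599 for PYCARD and −0.0151 to 0.0822 for CASP1. Matching members by symbol alone, chosen after seeing the data, left 4, 7 and 1 calls.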

Other observations

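ZBP1, a sensor of left-handed nucleic acids that was singled out after its values were seen, was numerically higher on day 14 than on day 0 in 14 of 15 animals and on day 3 in 14 of 15. Its level differed widely between animals, from 0.438 to 11.8 FPKM on day 0 and from 1.16 to 13.1 on day 14. The log2 fold change on day 14 vs. day 0 was 0.79 with limma's adjusted p = 0.159, and 9.89e-05 with the animal as a block.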
